A study of Mus musculus with 24 samples.

Results

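Major histocompatibility complex (MHC) class II molecules display peptides from the endosomes of antigen-presenting cells to CD4+ T cells. Their alpha and beta chains assemble on the invariant chain (Cd74), whose last fragment, CLIP, sits in the peptide groove until the chaperone H2-M exchanges it for a peptide. H2-O binds H2-M and restrains it, and is best known from B cells, while the coactivator Ciita, which does not bind DNA itself, is needed for transcription of this gene family. The 10 genes described here were chosen by name, with no cut on their values but with earlier results of these data known. They are H2-Ab1, H2-Aa, H2-Eb1, Cd74, H2-DMa, H2-DMb1, H2-DMb2, H2-Oa, H2-Ob and Ciita, out of 45792 genes in the deposited files. Each was found in 1 row, and all 10 passed the filter on low values (a mean log2 value of at least 4), as did 14227 genes in all.

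RNA was sequenced from liver cells of female C57BL/6 mice fed for 2 weeks on a diet without methionine and choline, a model of steatohepatitis that all groups share; the age of the mice is not given. The mice had received DiI-labelled liposomes, either empty or carrying curcumin, into a vein 24 hours before, and CD11c+ MHC class II+ cells were sorted by whether they carried the dye. Cells with the dye (DiI-positive) and without it (DiI-negative) were taken after each liposome, which gives 4 groups of 3 libraries; no mice without liposomes or on a normal diet were analysed here. Since MHC class II was itself a sorting marker, high class II expression is a property of the gate. Nothing in the sources tells whether a group's libraries stand for single mice or pooled ones, and p-values reflect only how far these libraries spread, which may be technical.

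Values are the authors' log2 values, and differences are DiI-positive minus DiI-negative or curcumin minus empty on that scale, with standard errors and Benjamini-Hochberg adjusted p-values from limma over the 14227 genes. The number of reads per library is unknown. Pairs of libraries had a Pearson r between 0.9735 and 0.9942. The curcumin DiI-positive libraries stood apart from each other. Replicate 3 had a first principal component score of 6.5, against 27.1 and 27.7 for the other two of its group. Replicate 1 had a second component score of 28.5, against -11.6 and -26.2 for the other two, and the lowest weight of all 12 libraries (0.44, against 0.73 for each of the other two) when limma weighted them. Differences that rest on either are given with and without it, and correlations only with it. Itgax, which encodes CD11c, lay between 12.01 and 13.48 in the 12 libraries, so the gate's other marker was present throughout. Dendritic cell genes were detected in every group, with Flt3 at 10.34 or more in every library. Genes of other cell types were too: Ms4a1, which encodes the B cell surface protein CD20, lay between 12.73 and 13.88 in DiI-positive and between 11.81 and 12.57 in DiI-negative libraries, and the Kupffer cell lectin Clec4f between 11.54 and 14.61 in DiI-positive and between 7.97 and 10.45 in DiI-negative libraries. The label of dendritic cells is therefore a description of the gate.

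Class II promoters are known for a shared upstream module in which RFX binds an X box and NF-Y a Y box. The promoter windows of 4 genes are shown because they hold this pair of motifs, and they include the 3 genes whose differences between gates were the most stable below, H2-DMb1, H2-DMb2 and H2-Ob. The windows run from 150 to 26 bases before the RefSeq transcript start (GRCm38.p6, 5′ to 3′, all on the plus strand), at chr17:34153041-34153165, chr17:34145099-34145223, chr17:34238755-34238879 and chr17:34305717-34305841 in the order printed. Capitals mark the letters AACNNATG (X box core) and GATTGG (Y box core), the search covering both strands; the late capitals in H2-Eb1 are a Y box core on the opposite strand.
H2-DMb1: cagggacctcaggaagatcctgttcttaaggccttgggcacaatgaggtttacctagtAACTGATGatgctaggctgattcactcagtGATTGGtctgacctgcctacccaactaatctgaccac
H2-DMb2: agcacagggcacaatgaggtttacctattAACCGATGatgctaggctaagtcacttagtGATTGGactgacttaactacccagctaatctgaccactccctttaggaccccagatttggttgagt
H2-Ob: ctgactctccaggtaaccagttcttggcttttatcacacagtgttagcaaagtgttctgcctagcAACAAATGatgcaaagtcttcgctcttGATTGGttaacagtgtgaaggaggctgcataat
H2-Eb1: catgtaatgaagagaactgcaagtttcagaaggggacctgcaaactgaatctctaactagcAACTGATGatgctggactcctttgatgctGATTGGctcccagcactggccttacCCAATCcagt

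From the first base of the X box core to that of the Y box core, the distance was 30 bases in H2-DMb1, 30 in H2-DMb2, 27 in H2-Ob and 29 in H2-Eb1. RefSeq gave 8 windows of 300 bases for 7 of the 10 genes, H2-Ab1, Cd74 and Ciita having none in the table used. An X box core followed by a Y box core within 50 bases on the gene's strand occurred in 4 of these 8 windows, against 0.0822% of 32851 mouse promoters. The Y box core alone was in 7 of the 8 windows and in 16.1% of all promoters, and the X box core alone in 4 of the 8 and in 8.86%. The X box letters were loosened from AACNGATG after these promoters had been read, because the tighter form missed H2-Ob, so the counts describe these windows and are no test. With AACNGATG the pair was in 3 of the 8 windows and in 0.0244% of all promoters, and the X box alone in 3 of the 8 and in 2.32%. The motifs do not separate the genes by the direction in which they moved: H2-DMb1, which fell in DiI-positive cells, and H2-DMb2, which rose, had 208 of 247 aligned promoter bases identical (84.2%).

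Setting DiI-positive against DiI-negative cells asks what sets apart the cells of the gate that held the liposome dye. The 10 genes did not move as one: averaged over both liposomes, H2-Ob and H2-DMb2 rose, H2-DMb1 and H2-Ab1 fell, and the other 6 did not pass the test. That is 4 of 10 genes called, against 12.1% of all genes tested (5.54% higher and 6.56% lower). The median difference of the 10 genes was -0.06, and that of all genes tested was 0.005. In the same comparison all 14 genes of a B cell marker list rose, and their part in the result was not tested. With empty liposomes 2 of 10 were called, 1 in each direction, against 2.95% of all genes (1.32% higher and 1.62% lower), and with curcumin liposomes 1 of 10, which was lower, against 3.07% (1.41% higher and 1.67% lower). The medians of the 10 were -0.04 and -0.13 in these 2 comparisons, against 0.004 and -0.003 for all genes.

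**Figure D1:**
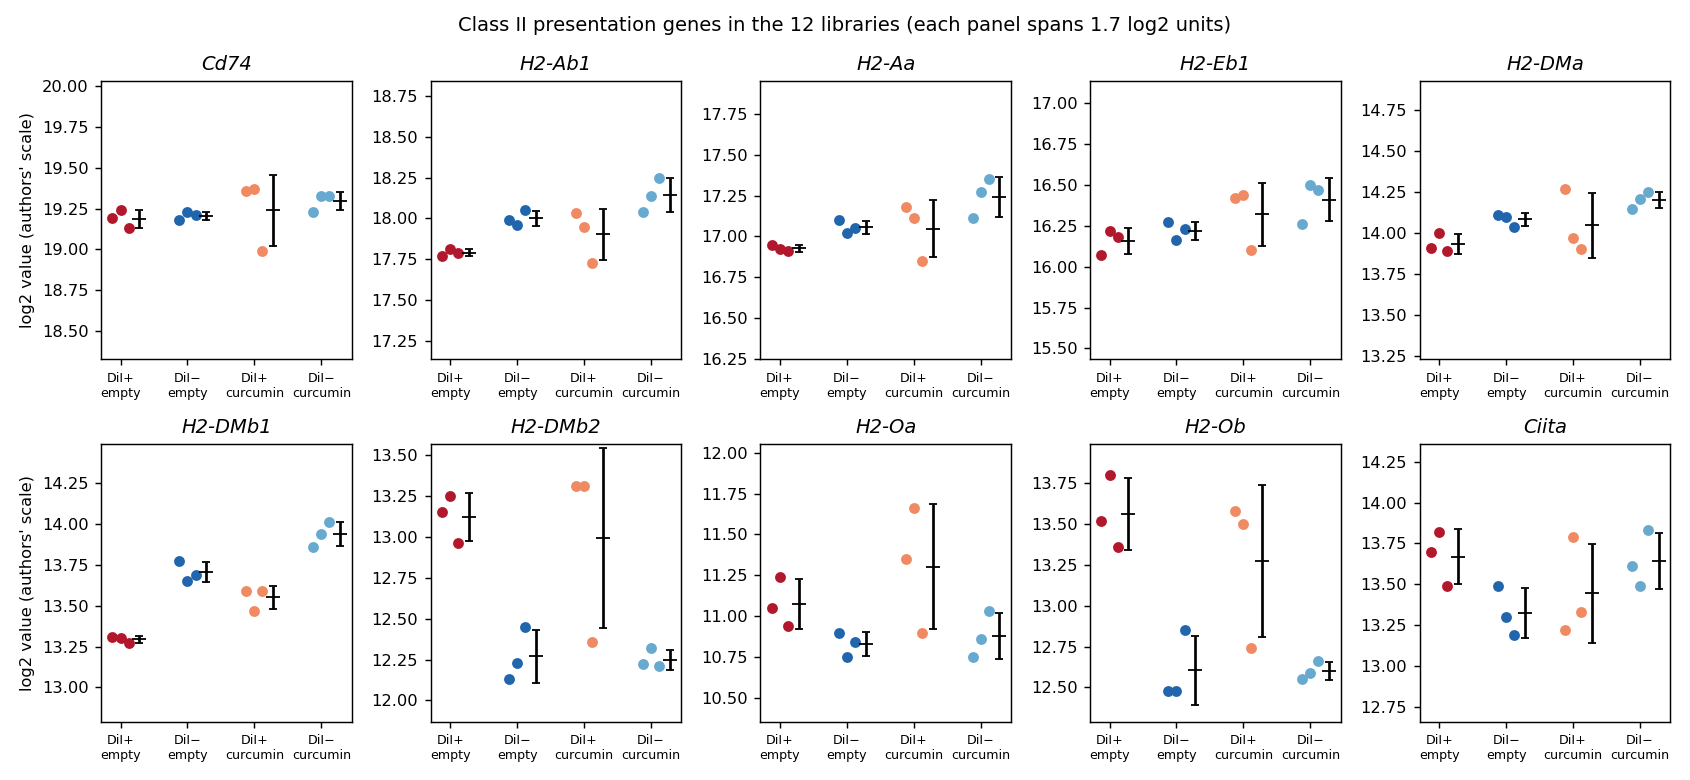
Log2 values (authors' scale) of the 10 genes, 1 panel per gene, with 1 point per library and black bars for mean ± SD of the 3 libraries of a group; every panel spans 1.7 log2 units. H2-Ob and H2-DMb2 are higher in DiI-positive libraries, least so in curcumin DiI-positive replicate 3 (12.74 and 12.36), and H2-DMb1 is lower in all 6 DiI-positive libraries.

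**Figure D2:**
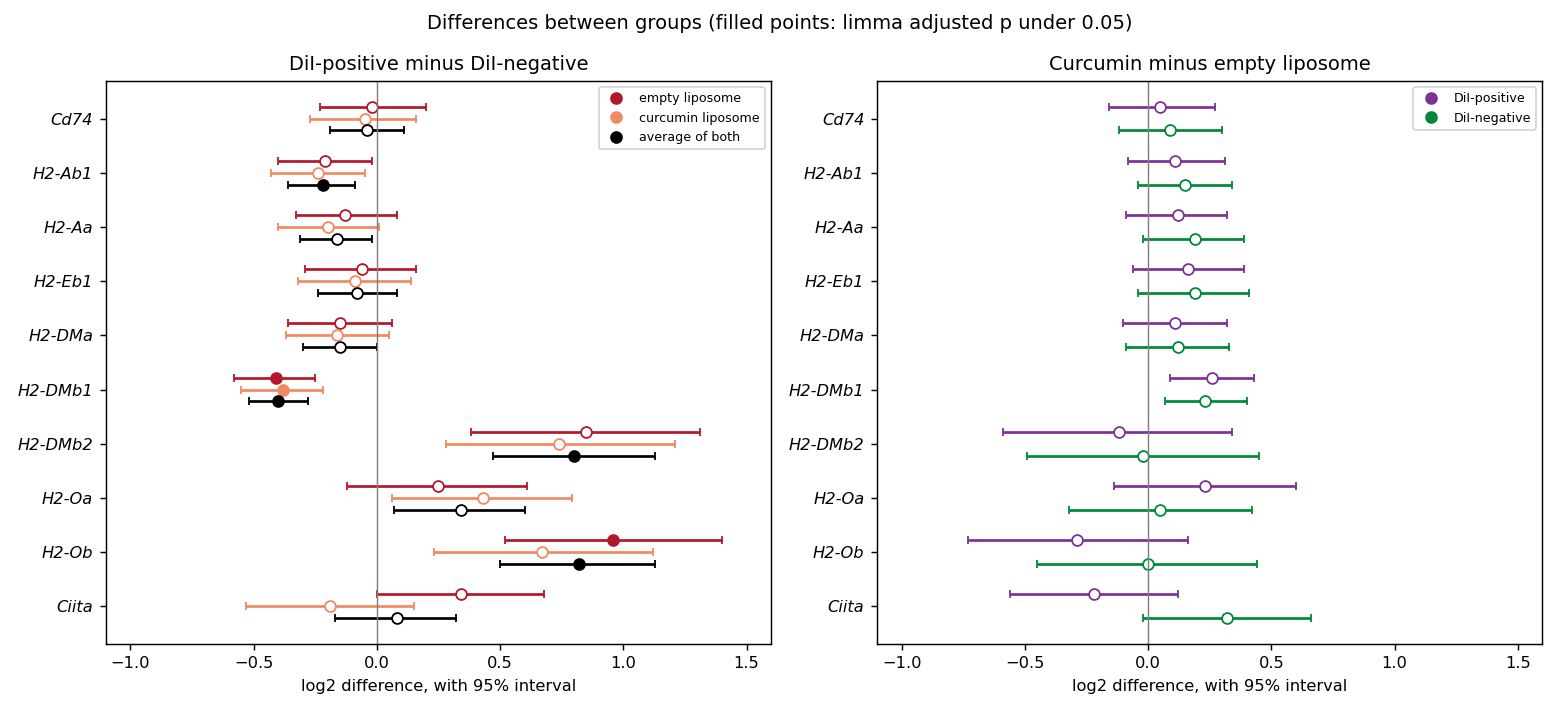
Log2 differences from limma (points) with 95% intervals (bars) for the 10 genes; filled points have an adjusted p under 0.05. In the left panel the averaged differences (black) are filled for H2-Ab1, H2-DMb1, H2-DMb2 and H2-Ob, and in the right panel, curcumin minus empty liposome, no point is filled.

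The classical chains and the invariant chain were among the most abundant transcripts of these cells. Per kilobase of annotated exon, the mean log2 level over the 12 libraries was highest for Cd74 (18.48), followed by H2-Ab1 (16.60), H2-Eb1 (15.32) and H2-Aa (15.14). H2-DMb1 (12.87), H2-DMa (12.28) and H2-DMb2 (11.85) came next, and H2-Ob (10.58), H2-Oa (10.53) and Ciita (10.27) last. The ranges over libraries of H2-Eb1 (15.11 to 15.54) and H2-Aa (14.93 to 15.42) overlapped, as did those of H2-Ob (10.05 to 11.38), H2-Oa (10.25 to 11.17) and Ciita (9.93 to 10.58), so the ranges alone do not separate neighbours within these sets. Within libraries, however, H2-Eb1 exceeded H2-Aa in all 12 (by 0.08 to 0.30). H2-Ob exceeded H2-Oa in 5 of 12, and H2-Oa exceeded Ciita in 10 of 12. H2-DMb1 (12.52 to 13.26) and H2-DMa (12.11 to 12.48) did not overlap, whereas H2-DMb2 (11.33 to 12.51) overlapped with H2-DMa. In mean RNA level over all libraries together, the genes of H2-O, the inhibitor, lay more than 1 log2 unit below those of H2-M, its target. The gap varied by group. After empty liposomes H2-Ob and H2-DMa were at 11.13 and 12.15 in DiI-positive libraries, against 10.17 and 12.30 in DiI-negative ones. These are RNA values of single chains, which depend on the exon length used, and not amounts of the protein complexes.

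H2-Ab1 (chromosome 17, 34257689 to 34269419, GRCm38) encodes the beta chain of I-A, the class II molecule of C57BL/6 mice. It stood at 17.77, 17.81 and 17.79 in DiI-positive libraries after empty liposomes, against 17.99, 17.96 and 18.05 in DiI-negative ones. With curcumin the values were 18.03, 17.95 and 17.73 in DiI-positive libraries, against 18.04, 18.14 and 18.25 in DiI-negative ones. Within each liposome the groups did not overlap, DiI-positive libraries being lower, though by little. The averaged difference was -0.22 ± 0.06 (limma adjusted p = 0.0358), a ratio of 0.856, and neither liposome alone gave a call (-0.21 ± 0.09, adjusted p = 0.232, and -0.24 ± 0.09, adjusted p = 0.162). The averaged call was lost without any 1 of the 6 empty-liposome libraries, of curcumin DiI-positive replicate 2 or of curcumin DiI-negative replicates 2 or 3 (adjusted p from 0.0574 to 0.0894, differences from -0.24 to -0.20). Quantile normalization gave -0.48, with adjusted p = 1.03e-05, and -0.48 after empty and -0.48 after curcumin liposomes, which passed too (adjusted p = 0.000475 and 0.000836). This setting gives each rank the same value in every library, and H2-Ab1 lies among the top ranks of the tested genes. The equal differences can therefore come from a change of rank alone, which was not tested, and their size and adjusted p are limited by this.

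H2-Aa (chromosome 17, 34282744 to 34287823, minus strand) encodes the alpha chain that pairs with H2-Ab1. It averaged 16.93 ± 0.02 in DiI-positive libraries and 17.06 ± 0.04 in DiI-negative ones after empty liposomes, and 17.05 ± 0.17 in DiI-positive libraries and 17.24 ± 0.12 in DiI-negative ones after curcumin liposomes (SD, n = 3 each). The averaged difference was -0.16 ± 0.07 (limma adjusted p = 0.136), with groups that did not overlap after empty liposomes. H2-Eb1 (chromosome 17, 34305867 to 34316674) encodes the beta chain of I-E, which C57BL/6 mice are known to lack at the surface because its alpha chain gene is not transcribed. H2-Eb1 RNA ranged from 16.07 to 16.44 in DiI-positive and from 16.16 to 16.50 in DiI-negative libraries, whereas H2-Ea-ps, as the alpha chain gene is annotated, did not pass the filter and ranged from 3.88 to 4.38 in DiI-positive and from 3.88 to 4.13 in DiI-negative libraries. The averaged difference of H2-Eb1 was -0.08 ± 0.07 (limma adjusted p = 0.553), and it overlapped between the gates with either liposome. With quantile normalization the averaged difference of H2-Eb1 was -0.29 and passed the test (limma adjusted p = 0.0424). H2-Eb1 too lies among the top ranks, with 99.9% of tested genes below it, so the same limit applies.

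Cd74 (chromosome 18, 60803848 to 60812652) had the highest level of the 10 genes. It ranged from 18.99 to 19.37 in DiI-positive and from 19.18 to 19.33 in DiI-negative libraries, so that the DiI-negative values lay inside the DiI-positive range. The averaged difference was -0.04 ± 0.07 with a 95% interval from -0.19 to 0.11 (limma adjusted p = 0.793). Both the lowest value, 18.99, and the highest, 19.37, came from curcumin DiI-positive libraries (replicates 3 and 2).

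The 3 genes of H2-M differed from each other. H2-DMa (chromosome 17, 34119541 to 34139101), its alpha chain, averaged 13.94 ± 0.06 in DiI-positive libraries and 14.08 ± 0.04 in DiI-negative ones after empty liposomes, and 14.04 ± 0.20 in DiI-positive libraries and 14.20 ± 0.05 in DiI-negative ones after curcumin liposomes (SD, n = 3 each). Its averaged difference was -0.15 ± 0.07 (limma adjusted p = 0.175). Without curcumin DiI-positive replicate 1, which at 14.27 was the highest of all 12 libraries, it was -0.21 and passed (adjusted p = 0.0351). Of the 10 genes, H2-DMa shares exon bases with a gene on the opposite strand, Brd2 (360 bases), as do H2-Oa with BC051537 (321 bases) and Ciita with Dexi (329 bases); Cd74 shares 12 with Mir5107 on its own strand. Whether the counting used strand is not given in the sources used here, so reads of these partners may not be told apart.

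H2-DMb1 (chromosome 17, 34153072 to 34160230) encodes a beta chain of H2-M. It stood at 13.31, 13.30 and 13.27 in DiI-positive libraries after empty liposomes, against 13.77, 13.65 and 13.69 in DiI-negative ones. After curcumin liposomes it stood at 13.59, 13.47 and 13.59 in DiI-positive libraries, against 13.86, 13.94 and 14.01 in DiI-negative ones. All 6 DiI-positive libraries lay below all 6 DiI-negative ones. H2-DMb1 fell by 0.40 ± 0.05 averaged over liposomes (limma adjusted p = 0.00109, 95% interval from -0.52 to -0.28), a ratio of 0.759 and rank 131 of 14227 genes by p. It also fell after empty liposomes (-0.41 ± 0.08, limma adjusted p = 0.0167) and after curcumin liposomes (-0.38 ± 0.08, adjusted p = 0.023). The averaged call held without each library in turn (adjusted p from 0.000878 to 0.00486). The call after empty liposomes was lost without DiI-negative replicate 1, 2 or 3 or DiI-positive replicate 2 (adjusted p from 0.0576 to 0.0816), and the call after curcumin liposomes without DiI-negative replicate 1, 2 or 3 or DiI-positive replicate 2 (0.0534 to 0.086), with differences between -0.44 and -0.34.

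H2-DMb2 (chromosome 17, 34143307 to 34151555) lies next to H2-DMb1 and encodes a second beta chain. It stood at 13.15, 13.25 and 12.96 in DiI-positive libraries after empty liposomes, against 12.13, 12.23 and 12.45 in DiI-negative ones. The curcumin liposome libraries had 13.31, 13.31 and 12.36 in DiI-positive libraries, against 12.22, 12.32 and 12.21 in DiI-negative ones. Replicate 3 of the curcumin DiI-positive group was close to the DiI-negative values, and the other 5 DiI-positive libraries were all above them. H2-DMb2 rose by 0.80 ± 0.15 averaged over liposomes (limma adjusted p = 0.00648), 1.74-fold, and this call held without each library in turn (adjusted p from 5.9e-05 to 0.0207). The difference was 0.85 ± 0.21 after empty liposomes (adjusted p = 0.0597) and 0.74 ± 0.21 after curcumin liposomes (adjusted p = 0.0852), neither of which passed. The empty-liposome difference passed with a mean of at least 6 (0.85, adjusted p = 0.0414), with library weights (0.84, adjusted p = 0.0167) and with only the groups compared (0.85, adjusted p = 0.0109). The curcumin-liposome difference passed when replicate 3 of the curcumin DiI-positive group was left out (1.06, adjusted p = 0.00113).

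The beta chain genes thus moved in opposite directions within the same libraries. The value of H2-DMb2 minus that of H2-DMb1 was -0.16, -0.05 and -0.31 in DiI-positive libraries after empty liposomes, against -1.63, -1.42 and -1.24 in DiI-negative ones. With curcumin it was -0.28, -0.15 and -1.23 in DiI-positive libraries, against -1.63, -1.62 and -1.80 in DiI-negative ones. Every DiI-positive library lay above every DiI-negative one, though curcumin DiI-positive replicate 3 only just. Taken per exon length, H2-DMb2 made up 46.1% ± 2.3 of the pair in DiI-positive libraries and 26.4% ± 2.6 in DiI-negative ones after empty liposomes (SD, n = 3 each). After curcumin liposomes the share was 39.9% ± 9.4 in DiI-positive libraries (44.1%, 46.4% and 29.1%) and 23.0% ± 1.3 in DiI-negative ones. The sum of both, as log2, was 14.21 ± 0.08 in DiI-positive libraries and 14.16 ± 0.05 in DiI-negative ones after empty liposomes. It was 14.32 ± 0.19 in DiI-positive libraries and 14.33 ± 0.06 in DiI-negative ones after curcumin liposomes, so with both liposomes the sum differed by less than the spread between libraries. The genes are near copies: their longest protein-coding transcripts had 1080 of 1217 aligned bases identical (88.7%), with an identical stretch of 221 bases. Reads from such stretches may have been split between them or left out by the counting, so the level of each is uncertain.

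**Figure D3:**
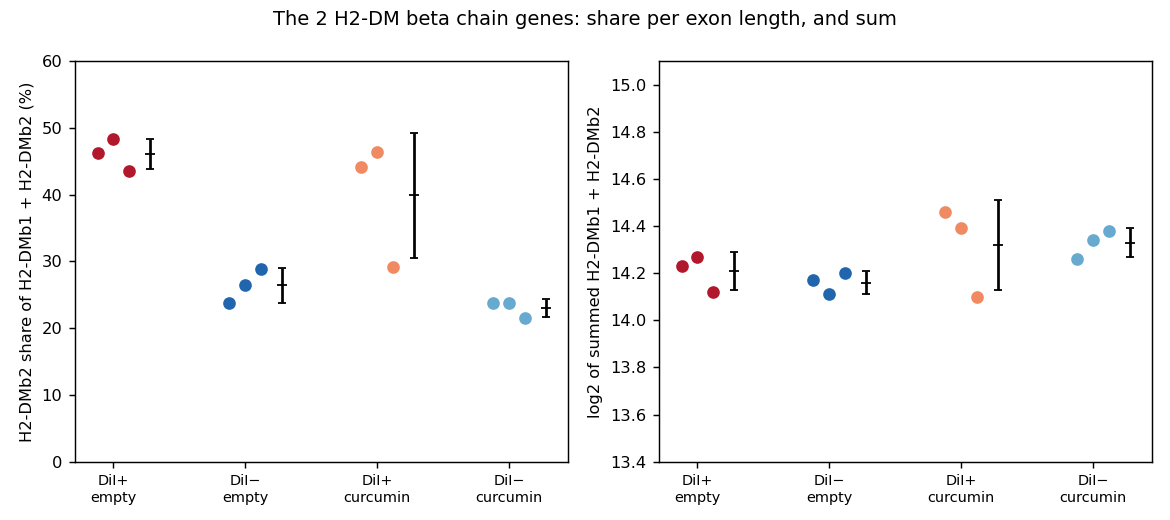
Left: H2-DMb2 as a percentage of H2-DMb1 plus H2-DMb2, each per exon length; right: log2 of their summed values. Points are libraries and bars mean ± SD (n = 3); the share is 43.6% to 48.3% in empty-liposome DiI-positive libraries and 21.6% to 28.9% in the 6 DiI-negative ones, whereas the sums overlap between the gates with either liposome.

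Of the genes of H2-O, H2-Ob rose in the average and H2-Oa did not pass the test. H2-Ob (chromosome 17, 34238903 to 34254414), its beta chain, stood at 13.52, 13.80 and 13.36 in DiI-positive libraries after empty liposomes, against 12.48, 12.48 and 12.85 in DiI-negative ones. After curcumin liposomes it stood at 13.58, 13.50 and 12.74 in DiI-positive libraries, against 12.55, 12.59 and 12.66 in DiI-negative ones. The groups did not overlap with either liposome, and curcumin DiI-positive replicate 3 was again the lowest of the DiI-positive libraries, below empty DiI-negative replicate 3. H2-Ob rose by 0.82 ± 0.14 averaged over liposomes (limma adjusted p = 0.00432), 1.76-fold, and this call held without each library in turn (adjusted p from 0.000169 to 0.0147). After empty liposomes it rose by 0.96 ± 0.20 (limma adjusted p = 0.0318), a call lost without any single library of those groups but DiI-positive replicate 3 (adjusted p from 0.0516 to 0.12, differences from 0.84 to 1.08). After curcumin liposomes the difference was 0.67 ± 0.20 (adjusted p = 0.0997), and without curcumin DiI-positive replicate 3 it was 0.94 and passed (adjusted p = 0.00425).

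H2-Oa (chromosome 17, 34092340 to 34095234), the alpha chain of H2-O, stood at 11.05, 11.24 and 10.94 in DiI-positive libraries after empty liposomes, against 10.90, 10.75 and 10.84 in DiI-negative ones. In mice given curcumin it stood at 11.35, 11.66 and 10.90 in DiI-positive libraries, against 10.75, 10.86 and 11.03 in DiI-negative ones. DiI-positive libraries were above DiI-negative ones after empty liposomes, and replicate 3 was the one that overlapped after curcumin liposomes. The averaged difference was 0.34 ± 0.12 (limma adjusted p = 0.0922). Without curcumin DiI-positive replicate 3 it was 0.44 and passed (adjusted p = 0.0101). After curcumin liposomes alone the difference was 0.43 ± 0.17 (limma adjusted p = 0.204), and without that library it was 0.63 and passed (adjusted p = 0.0229). Within libraries, H2-Ob exceeded H2-Oa by 2.49 ± 0.07 in DiI-positive libraries and 1.77 ± 0.22 in DiI-negative ones after empty liposomes, and by 1.97 ± 0.23 in DiI-positive libraries and 1.72 ± 0.08 in DiI-negative ones after curcumin liposomes (difference of log2 values, SD, n = 3 each).

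Ciita (chromosome 16, 10480059 to 10528418) stood at 13.70, 13.82 and 13.49 in DiI-positive libraries after empty liposomes, against 13.49, 13.30 and 13.19 in DiI-negative ones. With curcumin liposomes Ciita stood at 13.22, 13.79 and 13.33 in DiI-positive libraries, against 13.61, 13.49 and 13.83 in DiI-negative ones. Groups overlapped with both liposomes. The differences were 0.34 ± 0.16 (limma adjusted p = 0.275) and -0.19 ± 0.16 (adjusted p = 0.561), and their average was 0.08 ± 0.11 (adjusted p = 0.714). The difference between the 2 uptake differences, curcumin minus empty, was -0.54 ± 0.22 (95% interval from -1.02 to -0.06, limma adjusted p = 0.999), so no such difference was established for Ciita. Dexi, the gene that overlaps Ciita on the opposite strand, had the most similar profile of the protein-coding genes ranked for likeness (Pearson r = 0.973 over 12 libraries).

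Counted by libraries alone, 7 of the 10 genes did not overlap between the gates after empty liposomes, against 26.9% of all genes tested: H2-DMb2, H2-Oa and H2-Ob were higher in DiI-positive libraries and H2-Ab1, H2-Aa, H2-DMa and H2-DMb1 lower. After curcumin liposomes 4 of 10 did not overlap, against 20.6% of all genes: H2-DMb2 and H2-Ob were higher and H2-Ab1 and H2-DMb1 lower. The 4 genes that did not overlap with either liposome had the same sign in both, and are the 4 genes called in the average. Both counts use the same libraries as the averaged test, so this match is no separate support.

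Markers of other cell types moved with these results. The 14 genes of the B cell list had a median averaged difference of 1.19. Of its defining genes, Cd79a rose by 1.25 ± 0.23 and Ms4a1 by 1.20 ± 0.19 (limma adjusted p = 0.00496 and 0.00245). The list's summed level, as log2, ranged from 17.63 to 17.96 in DiI-positive and from 16.42 to 16.67 in DiI-negative libraries after empty liposomes, and from 16.78 to 17.87 in DiI-positive and from 16.11 to 16.51 in DiI-negative libraries after curcumin liposomes; none of its genes was at 0. The mean value of the list was 12.05 in curcumin DiI-positive replicate 3, against 13.09 and 13.10 in the other two of that group, so the library with the lowest H2-Ob and H2-DMb2 of the DiI-positive libraries also had the lowest B cell list mean among them. The same library had the highest means of the DiI-positive libraries for the dendritic cell core list (12.08, against 10.36 to 11.21), the type 1 conventional dendritic cell list (10.85, against 9.50 to 9.68) and the plasmacytoid dendritic cell list (10.19, against 8.45 to 8.86). Curcumin DiI-negative replicate 3 likewise had the highest means of its gate for these lists (12.91, 11.23 and 10.25). Among DiI-negative libraries after empty liposomes, replicate 3 was highest in H2-Ob (12.85), in H2-DMb2 (12.45) and in the B cell list mean (11.98, against 11.70 and 11.78). After curcumin liposomes the DiI-negative libraries did not follow that order: replicate 3 had the lowest list mean (11.35, against 11.80 and 11.79) but the highest H2-Ob (12.66, against 12.55 and 12.59). Over the 6 DiI-positive libraries, H2-Ob had a Pearson r of 0.98 with the B cell list mean and -0.88 with the dendritic cell core mean; over the 6 DiI-negative libraries the coefficients were 0.22 and -0.10. For H2-DMb2 they were 0.98 and -0.90 over the DiI-positive libraries, and 0.61 and -0.59 over the DiI-negative ones. The DiI-positive list means were 12.90 to 13.21 except in curcumin replicate 3, so that library has a large weight in the DiI-positive coefficients. How far they rest on it was not tested. Over the same libraries Cd74 had 0.83 and -0.83, and H2-DMb1 -0.48 and 0.26. The remaining members had 0.41 to 0.60 and -0.70 to -0.16. Over the DiI-negative libraries all members but H2-Ob and H2-DMb2 had -0.88 to -0.54 and 0.36 to 0.84. With the mean of a Kupffer cell marker list, H2-Ob had -0.57 over DiI-positive and 0.85 over DiI-negative libraries, and H2-DMb2 had -0.51 and 0.77. The other members had -0.42 to 0.38 and -0.03 to 0.69 with that list. These coefficients describe libraries of 2 liposomes that share processing. H2-DMb1 did not follow the B cell list: in curcumin DiI-positive replicate 3 it was 13.59, equal to replicate 1. In sorted bulk RNA, a change in the number of cells of a type cannot be told apart from a change in RNA per cell.

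**Figure D4:**
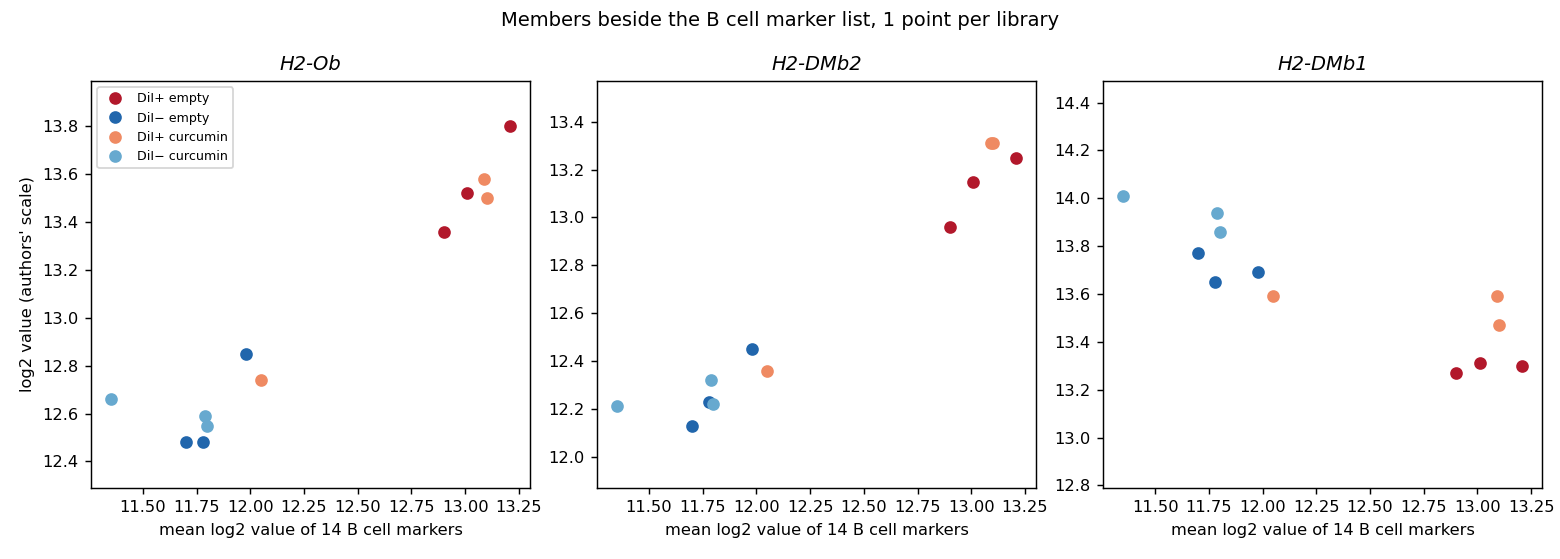
Log2 values of H2-Ob, H2-DMb2 and H2-DMb1 (vertical axes, each spanning 1.7 units) against the mean log2 value of 14 B cell markers (horizontal axis), 1 point per library, coloured by group. The 5 DiI-positive libraries with marker means of 12.90 to 13.21 have the highest H2-Ob and H2-DMb2, curcumin DiI-positive replicate 3 lies with the DiI-negative libraries at 12.05, and H2-DMb1 is lowest in the empty-liposome DiI-positive libraries.

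Kupffer cell markers moved too, with 14 of 15 higher in the average and a median of 2.37; Clec4f rose by 4.52 ± 0.40 (limma adjusted p = 0.000153). Their summed level ranged from 16.44 to 17.59 in DiI-positive and from 15.12 to 15.77 in DiI-negative libraries after empty liposomes, and from 16.93 to 17.69 in DiI-positive and from 14.81 to 15.62 in DiI-negative libraries after curcumin liposomes. Of 4 dendritic cell core genes, 2 fell (median -1.09), among them Flt3 (-1.65 ± 0.32, limma adjusted p = 0.00732), while Itgax did not pass (-0.53 ± 0.17, adjusted p = 0.0749). The summed level of these 4 ranged from 12.96 to 13.68 in DiI-positive and from 14.04 to 14.53 in DiI-negative libraries after empty liposomes, and from 13.31 to 14.31 in DiI-positive and from 14.08 to 15.02 in DiI-negative libraries after curcumin liposomes. Of 9 markers of type 2 conventional dendritic cells, 5 fell, with Cd209a at -2.03 ± 0.20 (limma adjusted p = 0.000283), and of 8 type 1 markers 2 fell and 1 rose, with Xcr1 at -1.22 ± 0.47 (adjusted p = 0.121). All 7 monocyte markers fell (median -1.04), as did 6 of 8 NK and T cell markers (median -1.44). Of 6 markers of mature dendritic cells 1 rose and 1 fell, 1 of 7 of plasmacytoid dendritic cells and 1 of 6 of sinusoidal endothelium rose, and none of 7 hepatocyte genes passed. The mean of the sinusoidal endothelial list was 10.56 in curcumin DiI-positive replicate 3, against 7.05 and 7.87 in the other two of its group. No gene of these lists was at 0 in all libraries, which alone does not show that each was expressed. Some lay near the filter: group means were 4.17 to 4.90 for the hepatocyte gene Cps1 and 4.41 to 5.01 for the endothelial gene Lyve1. The part of these lists in the class II differences was not tested.

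Among 25 other genes of the pathway, 24 passed the filter; averaged over liposomes 4 rose and 1 fell, against 12.1% of all genes called (5.54% higher and 6.56% lower), with a median of 0.04 against 0.005 for all genes. Lgmn, an asparagine endopeptidase of endosomes, rose by 0.98 ± 0.15, the lysosomal protease Ctsd by 0.85 ± 0.16 and Ctsb, another such protease, by 0.77 ± 0.12 (limma adjusted p = 0.00245, 0.00525 and 0.00265). In all 3 genes the 6 DiI-positive libraries lay above the 6 DiI-negative ones, as shown by Lgmn, with 13.34 to 13.95 in DiI-positive and 12.21 to 13.11 in DiI-negative libraries. March1, a ubiquitin ligase that removes class II from the surface, rose by 0.45 ± 0.11 (limma adjusted p = 0.0203). Spi1, which encodes the transcription factor PU.1, fell by 0.39 ± 0.08 (limma adjusted p = 0.00767), with 12.77 to 13.08 in DiI-positive and 13.15 to 13.52 in DiI-negative libraries. After curcumin liposomes Lgmn (1.16 ± 0.22), Ctsd (1.14 ± 0.22) and Ctsb (0.92 ± 0.17) were called, against 3.07% of all genes, and after empty liposomes none of the 24, against 2.95%. Ctss, the protease that trims the invariant chain, was at 0.27 ± 0.13 in the average (adjusted p = 0.222). Ifi30, a thiol reductase of endosomes, was at -0.31 ± 0.11 (adjusted p = 0.0817), the RFX subunit Rfx5 at 0.12 ± 0.13 (adjusted p = 0.602), and Irf8, a transcription factor of dendritic cells, at -0.34 ± 0.19 (adjusted p = 0.294).

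Within each gate, cells from mice given curcumin liposomes were set against those from mice given empty ones. None of the 10 genes passed in either gate, and nor did any other gene: limma called 0% of all genes among DiI-positive and 0% among DiI-negative cells, with 1165 and 469 genes at an unadjusted p under 0.05. The median difference of the 10 genes was 0.11 in DiI-positive and 0.13 in DiI-negative cells, against 0 and 0 for all genes tested. In DiI-positive cells 1 of 10 genes did not overlap between the liposomes, against 10% of all genes, and in DiI-negative cells 3 of 10, against 11.2%. H2-DMb1 was the one in DiI-positive cells, and H2-DMb1, H2-Aa and H2-DMa were those in DiI-negative cells, all higher with curcumin.

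H2-DMb1 had the smallest p of the 10 genes in both gates. It averaged 13.55 ± 0.07 after curcumin and 13.29 ± 0.02 after empty liposomes in DiI-positive cells, and 13.94 ± 0.08 after curcumin and 13.70 ± 0.06 after empty liposomes in DiI-negative cells (SD, n = 3 each). The difference was 0.26 ± 0.08 in DiI-positive (95% interval from 0.09 to 0.43, limma adjusted p = 0.444) and 0.23 ± 0.08 in DiI-negative cells (0.07 to 0.40, adjusted p = 1), and both had an unadjusted p under 0.05. It was higher with curcumin in all libraries of both gates, but failed the correction. For H2-Ab1 the differences were 0.11 ± 0.09 in DiI-positive (95% interval from -0.08 to 0.31) and 0.15 ± 0.09 in DiI-negative cells (-0.04 to 0.34), and for H2-Aa 0.12 ± 0.09 (-0.09 to 0.32) and 0.19 ± 0.09 (-0.02 to 0.39). For H2-DMb2 they were -0.12 ± 0.21 (-0.59 to 0.34) and -0.02 ± 0.21 (-0.49 to 0.45), and for H2-Ob -0.29 ± 0.20 (-0.73 to 0.16) and 0.00 ± 0.20 (-0.45 to 0.44). Ciita was at -0.22 ± 0.16 (-0.56 to 0.12) and 0.32 ± 0.16 (-0.02 to 0.66). These intervals, which are not adjusted for the number of genes, include changes of either sign for all of them but H2-DMb1. H2-DMb1 had the smallest p of the 10 and failed the correction, so the sign of its change is not established either.

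The difference between the uptake effects under curcumin and empty liposomes was called for none of the 10 genes and for 0% of all genes, with 527 genes at an unadjusted p under 0.05, of which Ciita was the only one of the 10. The median of this difference was -0.03 for the 10 genes and -0.001 for all genes. The uptake comparisons and the curcumin comparisons share libraries, so a high or low group enters more than 1 of them.

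Over the 12 libraries, H2-Ob and H2-DMb2 resembled each other (Pearson r = 0.98) and H2-Ab1 resembled H2-Aa (r = 0.95), whereas H2-DMb1 ran against H2-Ob (r = -0.80). Likeness was ranked among tested protein-coding genes outside the 10, without numbered clones or immunoglobulin and T cell receptor segments. Of these genes, those most like H2-DMb2 were Cd2 (r = 0.980), Serpinb1a (0.976) and Cd79b (0.975), the last encoding a B cell receptor subunit. Those most like H2-Ob were Spib (0.976), a transcription factor, Fcrla (0.969) and B3gnt5 (0.968). H2-DMb1 was most like Psmb8 (0.959), an immunoproteasome subunit, Calr (0.948), a chaperone, and Syngr2 (0.947). The classical chains were most like ribosomal protein genes, with Rpl38 (0.909) for H2-Ab1, Rpl23a (0.910) for H2-Aa and Rps2 (0.938) for H2-Eb1. Cd74 was most like Eif3i (0.882), H2-DMa like Tlcd1 (0.901) and H2-Oa like Rbm4b (0.932). These coefficients describe 12 libraries that share processing and fall into 2 gates, so the difference between gates is part of each, and no p-value is attached.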

How the data were processed

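Sorted-cell RNA was amplified (SMARTer Ultra Low Input kit) before Nextera XT library preparation, per the labels' protocols. The deposited values are log2 values per gene made by the authors. They resemble a shrunken (regularized) log2 scale, on which changes of low genes would be understated. STAR 2.4.0d, DESeq2 1.8.1 and GRCm38 are named in the submitters' processing notes; for the read counter and transform, the sources used here give nothing. Depth is unknown, so precision is the spread between libraries. The 24 sample records carry 12 library codes, each counted as 1 library; the design text served to read P and N in a code as with and without DiI, and CL and EL as the liposome.

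The 12 libraries entered 1 fit in limma 3.58.1 (R 4.3.3; eBayes with trend, 8 residual and 3.51 prior degrees of freedom) over the 14227 of 24874 genes not at 0 throughout whose mean was at least 4, with Benjamini-Hochberg adjustment and a threshold of 0.05. The fit was tested on simulated data. Alternatives were other filters, scalings, prior variances, library weights, only the groups compared, a replicate block, and leaving out each library. Coordinates, exon lengths and transcripts came from GENCODE M21 (GRCm38), promoters from RefSeq (GRCm38.p6). The 10 genes, the pathway and marker lists and the naming rule were chosen with earlier results of these data known. The rule took all 10 genes, pathway genes that passed in any comparison plus Ctss, Ifi30, Rfx5, March1 and Irf8, defining markers (1 of them is not reported here), and up to 3 most similar genes each. Promoters of genes passing a test were to be shown, and H2-Eb1 and the motif letters were chosen after the sequences were seen.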

Additional observations from a re-analysis of the deposited data

How the results depend on the processing

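Averaged over liposomes, H2-DMb1, H2-DMb2 and H2-Ob kept direction and call under all 7 other settings and without each of the 12 libraries, while H2-Ab1 lost its call with median centring (adjusted p = 0.0515), constant prior variance (0.0629) and the replicate block (0.0955), and without 9 of the 12 libraries. Of 940 values of single genes under other settings, 899 stayed on the same side of the threshold, 30 lost a call and 11 gained one. Most of these values had no call in the main fit. No member was called under any setting when curcumin was set against empty liposomes or the uptake differences were compared. The 899 therefore mostly counts values that stayed uncalled, and the 30 lost calls came from the few values that had a call. The sign changed in 23 of the 899, none of them called. After empty liposomes 2 genes were called, against 1 without a filter, 0 with the replicate block and 0 to 2 with 1 library left out, and 3 each with a mean of at least 6, library weights or only the groups compared (H2-DMb2 added) and with quantile normalization (H2-Ab1 added). After curcumin liposomes 1 gene was called, against 2 with quantile normalization, 0 with only the groups compared, 0 with the replicate block and 0 to 4 with 1 library left out, the 4 being without DiI-positive replicate 3. The cause was not tested. Whether same-numbered libraries belong together was not settled. Deviations of same-numbered DiI-positive and DiI-negative libraries correlated at 0.08, 0.00 and 0.08 after empty and at 0.07, 0.03 and 0.33 after curcumin liposomes. Differently numbered ones correlated at -0.08 to 0.00 after empty and at -0.24 to 0.20 after curcumin liposomes. The replicate block therefore rests on shared numbers only. With the block 390 and 448 of all genes were called, against 419 and 437. Depth could not be assessed, since read numbers are not given.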
